A study of Mus musculus with 8 samples.

Results

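Vdr, the receptor for active vitamin D, was examined in mouse bone marrow-derived macrophages together with 9 other nuclear receptors that sense lipids, retinoids, glucocorticoids or heme. These were its partners Rxra and Rxrb, the oxysterol receptors Nr1h2 and Nr1h3, the fatty acid receptors Pparg and Ppard, the retinoic acid receptor Rara, the glucocorticoid receptor Nr3c1 and the heme-binding clock repressor Nr1d1. The 10 genes were the rows of the count table with these symbols, out of 54532 genes in all, and all 10 were among the 12911 genes that passed the filter on low counts. They were chosen by the CPM of Vdr in WT and Gsdmd-/- macrophages, which was already known from this table, and by their relation to Vdr. The differences of the 10 genes between genotypes are therefore given as a description, with no p-value.

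RNA was sequenced from macrophages grown from the femur and tibia marrow of mice with M-CSF for 6 days and left untreated, in 4 WT and 4 Gsdmd-/- libraries. WT mice were female C57BL/6J animals of 6 to 8 weeks bought from a supplier. Gsdmd-/- mice lack gasdermin D, the protein that forms membrane pores in pyroptosis, in all cells, and came as a gift from another laboratory. Their age was not given separately, and they were not described as littermates of the WT mice. Whether the 4 libraries of a genotype were made from separate mice was not stated, so that p-values measure only the spread between these samples, which may be technical.

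Total counts lay between 14935114 and 16794810 per library. Levels are given as CPM, counts scaled to a fixed library size with TMM factors. Gsdmd, the targeted gene, had 63.5 to 95.5 CPM in WT and 14.4 to 18.2 CPM in Gsdmd-/-, or 21.5% of the WT mean. All 7 macrophage markers were detected in every library, with a summed level, mostly from Lyz2, of 15316 to 23409 CPM in WT and 19377 to 23365 CPM in Gsdmd-/-. WT 2 and WT 3 stood apart from the other 6 libraries. On the first principal component, which held 43.6% of the variance, they lay at 45.4 and 38.8 and the others between -25.9 and -7.19. Of the macrophage markers, Fcgr1 had 7.09 and 6.66 CPM in WT 2 and WT 3 and 17.8 to 40.7 CPM in the other libraries, Cd68 had 414 and 424 CPM and otherwise 621 to 849 CPM, and Lyz2 and Itgam were also lowest there, whereas Adgre1 and Mertk were highest there. The part of this in the values of the receptors was not tested. Where the log2 fold change of a receptor or list gene given here moved by more than 1.5 times or turned without these libraries, it is also given without them. In bulk RNA, fewer cells of a type and less RNA per cell cannot be told apart.

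Nuclear receptors are transcription factors whose activity is set by small lipophilic ligands. VDR, the LXRs (Nr1h2 and Nr1h3), the PPARs and RARA bind DNA as heterodimers with an RXR, typically at repeats of the hexamer AGGTCA, whereas the glucocorticoid receptor binds mainly as a homodimer and NR1D1 represses clock and metabolic genes without an RXR. In macrophages, VDR dampens inflammatory genes, the LXRs drive cholesterol efflux, the PPARs drive uptake, storage and oxidation of fatty acids, and the glucocorticoid receptor induces anti-inflammatory genes.

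Promoters from RefSeq (GRCm38.p6, 250 bases before to 50 after the start of a transcript) were found for 9 of the 10 genes, with 17 promoters in all. AGGTCA was searched on both strands and was present in 4 of these promoters, which belong to Rxra, Pparg and Rara, and in 16.3% of all 32851 mouse promoters. The E-box CACGTG, a palindrome that the clock activators bind, was in 2 overlapping Rara promoters and in 7.15% of all promoters. The sequences below are those of Vdr and Nr1d1, whose log2 fold changes between genotypes were farthest from 0 among the 10 genes, of Nr1d2, the paralog of Nr1d1, and of the downstream of the Rxra promoters, the only one of the 17 with 2 matches. Each is written 5′ to 3′ on the strand of the gene, with AGGTCA or its complement TGACCT in capitals.
Vdr (chr15:97908247-97908546, minus strand): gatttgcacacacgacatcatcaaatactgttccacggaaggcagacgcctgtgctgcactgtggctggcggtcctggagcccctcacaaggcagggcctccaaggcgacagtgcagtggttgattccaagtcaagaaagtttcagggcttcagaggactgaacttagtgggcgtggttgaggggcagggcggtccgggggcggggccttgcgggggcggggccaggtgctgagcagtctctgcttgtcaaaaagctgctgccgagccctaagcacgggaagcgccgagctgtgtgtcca
Nr1d1 (chr11:98775328-98775627, minus strand): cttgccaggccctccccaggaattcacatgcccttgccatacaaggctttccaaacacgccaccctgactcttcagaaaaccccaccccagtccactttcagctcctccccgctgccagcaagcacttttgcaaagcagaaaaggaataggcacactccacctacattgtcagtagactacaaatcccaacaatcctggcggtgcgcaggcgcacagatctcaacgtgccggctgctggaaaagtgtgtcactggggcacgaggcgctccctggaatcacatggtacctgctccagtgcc
Nr1d2 (chr14:18239057-18239356, minus strand): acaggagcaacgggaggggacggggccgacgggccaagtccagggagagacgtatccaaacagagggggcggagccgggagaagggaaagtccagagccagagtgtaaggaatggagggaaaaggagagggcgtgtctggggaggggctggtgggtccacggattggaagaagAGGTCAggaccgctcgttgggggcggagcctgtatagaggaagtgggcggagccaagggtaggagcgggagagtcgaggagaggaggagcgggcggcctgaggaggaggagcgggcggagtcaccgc
Rxra (chr2:27709042-27709341, plus strand): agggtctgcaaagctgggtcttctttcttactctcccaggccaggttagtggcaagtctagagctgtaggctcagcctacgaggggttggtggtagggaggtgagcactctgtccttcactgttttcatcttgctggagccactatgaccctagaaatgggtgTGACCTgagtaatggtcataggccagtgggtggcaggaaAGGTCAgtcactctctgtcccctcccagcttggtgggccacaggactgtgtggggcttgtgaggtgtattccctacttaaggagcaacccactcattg
The Vdr and Nr1d1 windows held neither hexamer. The Nr1d2 window held AGGTCA 77 bases before the start, and the Rxra window held TGACCT and AGGTCA 87 and 48 bases before it. Of all promoters, 1.81% had at least 2 matches. A match of letters describes the sequence and does not show that a receptor binds there.

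Vdr (ENSMUSG00000022479, chr15:97854425-97910630, minus strand) had 10.7, 16.9, 16.2 and 9.74 CPM in WT 1 to WT 4 and 5.33, 4.73, 4.44 and 5.97 CPM in Gsdmd-/- 1 to Gsdmd-/- 4. Every Gsdmd-/- library was below every WT library, and within WT the highest levels were those of WT 2 and WT 3. The mean of WT was 13.4 ± 3.68 CPM and that of Gsdmd-/- 5.12 ± 0.678 CPM (SD, n = 4 each), so that Gsdmd-/- had 38.2% of the WT level, with a log2 fold change of -1.39 (SE 0.205). These values rest on 878 counts in WT and 330 in Gsdmd-/-. Against WT 1 and WT 4 alone, the log2 fold change of Vdr was -1.0 (SE 0.16). Vdr was the only one of the 10 genes whose genotypes did not overlap, which held for 7.6% of all tested genes in either direction and 4.12% as lower in Gsdmd-/-. Because the genes were chosen by this contrast, nothing is read from that count. Vdr lies 22 Mb from Gsdmd on chromosome 15. Between these 2 genes, 216 genes were tested and 10 (4.63%) were at the study's cutoff (p under 0.05 before adjustment, with a log2 fold change of 0.5 or more in size), beside 4.83% of all tested genes.

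**Figure D1:**
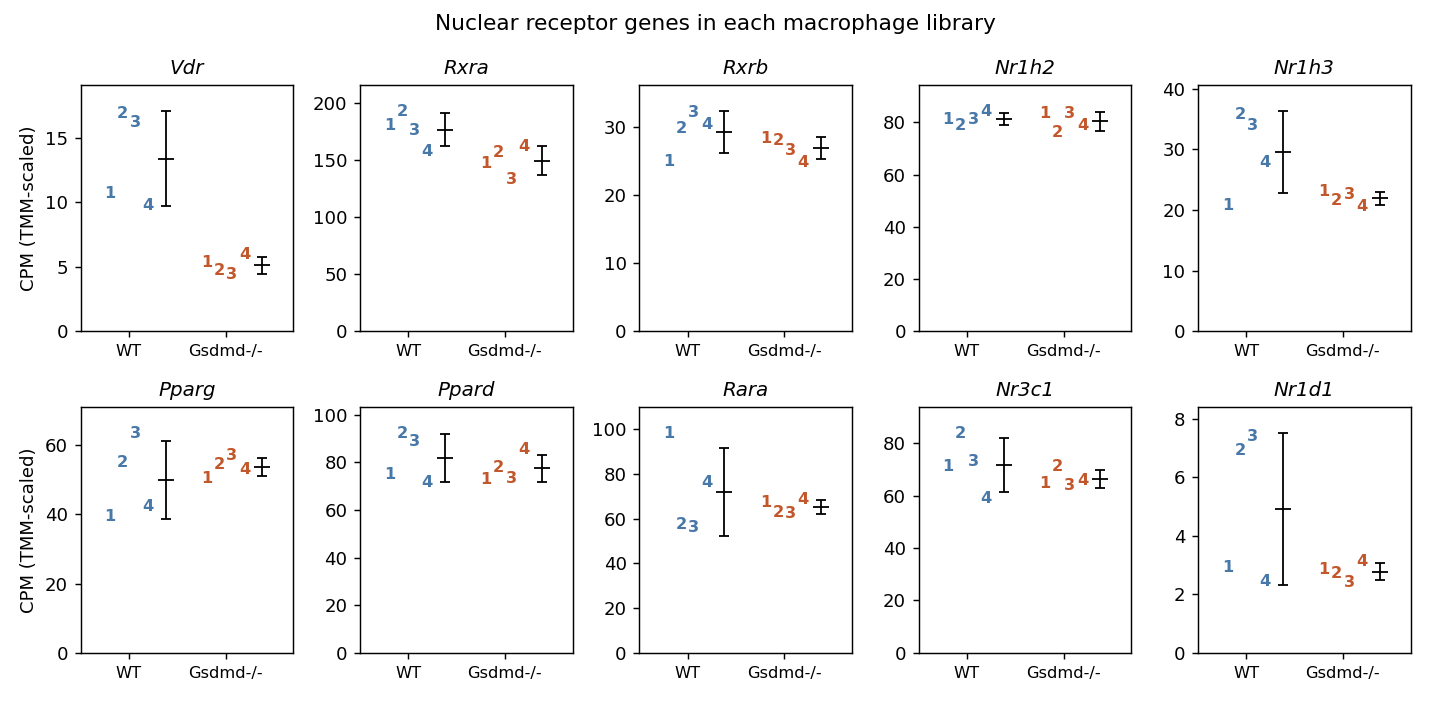
Level of each of the 10 nuclear receptor genes in CPM in the 4 WT and 4 Gsdmd-/- libraries, with the numbers 1 to 4 at the levels of the libraries and error bars for the mean and SD. Vdr had no overlap between genotypes (9.74 to 16.9 CPM in WT and 4.44 to 5.97 CPM in Gsdmd-/-), while the ranges of the other 9 genes overlapped.

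The means of the RXR partners in Gsdmd-/- were 84.7% and 91.9% of WT. Rxra (ENSMUSG00000015846, chr2:27676440-27762957) had 180.3, 193, 176 and 158 CPM in WT and 147, 157, 133 and 162 CPM in Gsdmd-/-. Only Gsdmd-/- 4 lay above the lowest WT library, and the log2 fold change was -0.24 (SE 0.0923). Rxrb (ENSMUSG00000039656, chr17:34031812-34038399) had 25.0, 29.8, 32.1 and 30.4 CPM in WT and 28.4, 28.0, 26.6 and 24.8 CPM in Gsdmd-/-. Its ranges overlapped from WT 1, the lowest WT library, upwards, and its log2 fold change was -0.12 (SE 0.101), or -0.04 (SE 0.112) without WT 2 and WT 3. The third RXR gene, Rxrg, had 0 counts in all 8 libraries.

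The LXR genes differed from each other in how they varied. Nr1h2, which encodes LXRβ (ENSMUSG00000060601, chr7:44549616-44553951), had 80.9, 78.9, 80.9 and 84.2 CPM in WT and 83.3, 76.1, 83.3 and 78.7 CPM in Gsdmd-/-. Both genotypes covered nearly the same range, and the log2 fold change of -0.02 (SE 0.0716) was the nearest to 0 of the 10 genes, and it was -0.04 (SE 0.09) without WT 2 and WT 3. Nr1h3, which encodes LXRα (ENSMUSG00000002108, chr2:91184061-91202834), had 20.7, 35.7, 33.9 and 27.9 CPM in WT and 23.0, 21.6, 22.6 and 20.6 CPM in Gsdmd-/-. WT 1 was as low as the Gsdmd-/- libraries and the other 3 WT libraries were above them. The mean was 74.2% of WT, with a log2 fold change of -0.43 (SE 0.156), which was -0.15 (SE 0.128) without WT 2 and WT 3. Nr1h3 shares 34 of its 2515 exon bases (1.35%) with the gene Gm13783.

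Pparg, the receptor that drives lipid storage genes in alternatively activated macrophages, was the only one of the 10 genes with a log2 fold change above 0. Pparg (ENSMUSG00000000440, chr6:115360951-115490399) had 39.5, 55.0, 63.5 and 42.2 CPM in WT and 50.4, 54.5, 56.9 and 53.1 CPM in Gsdmd-/-. WT 3 was the highest and WT 1 the lowest of the 8 libraries, so that the WT range enclosed all Gsdmd-/- libraries. The log2 fold change was 0.10 (SE 0.143), and 0.39 (SE 0.0955) without WT 2 and WT 3. With 1 library left out it lay between 0.0 and 0.24. Ppard (ENSMUSG00000002250, chr17:28232700-28301474), a broadly expressed fatty acid receptor, had 74.7, 92.3, 88.7 and 71.5 CPM in WT and 73.0, 77.8, 73.4 and 85.6 CPM in Gsdmd-/-. WT 2 and WT 3 were its highest libraries as well, and the log2 fold change of -0.08 (SE 0.104) became 0.08 (SE 0.1) without them.

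Rara, the receptor for all-trans retinoic acid, varied in the other direction among the WT libraries. Rara (ENSMUSG00000037992, chr11:98927818-98974942) had 98.3, 57.4, 55.9 and 76.1 CPM in WT and 67.3, 62.8, 62.5 and 68.8 CPM in Gsdmd-/-. WT 2 and WT 3 were the lowest of the 8 libraries and WT 1 the highest. The log2 fold change was -0.14 (SE 0.165), and -0.42 (SE 0.118) without WT 2 and WT 3. Without WT 1 alone it was 0.05 (SE 0.117). Nr3c1 (ENSMUSG00000024431, chr18:39410545-39519421), the glucocorticoid receptor, had 71.1, 83.8, 73.0 and 58.8 CPM in WT and 64.6, 71.1, 63.9 and 65.6 CPM in Gsdmd-/-. All Gsdmd-/- libraries of Nr3c1 lay within the WT range, and the log2 fold change was -0.11 (SE 0.107), or 0.03 (SE 0.109) without WT 2 and WT 3.

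Nr1d1, which encodes the clock repressor REV-ERBα (ENSMUSG00000020889, chr11:98767932-98775333), had 2.92, 6.90, 7.39 and 2.43 CPM in WT and 2.84, 2.72, 2.41 and 3.12 CPM in Gsdmd-/-. The lower mean in Gsdmd-/-, 2.77 ± 0.293 CPM (SD, n = 4) beside 4.91 ± 2.60 CPM (SD, n = 4) in WT, rested on WT 2 and WT 3, and WT 1 and WT 4 were within the Gsdmd-/- range. Its log2 fold change was -0.82 (SE 0.352) with all libraries and 0.05 (SE 0.223) without WT 2 and WT 3. Nr1d1 overlaps the gene Thra on the other strand over 263 of its 3077 exon bases (8.55%). Whether the counting used strand was not given, and without strand the reads of both genes cannot be told apart there. Thra itself had 20.5 ± 2.25 CPM in WT and 19.2 ± 2.34 CPM in Gsdmd-/- (SD, n = 4 each). Its log2 fold change was -0.10, or 0.03 without WT 2 and WT 3.

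**Figure D2:**
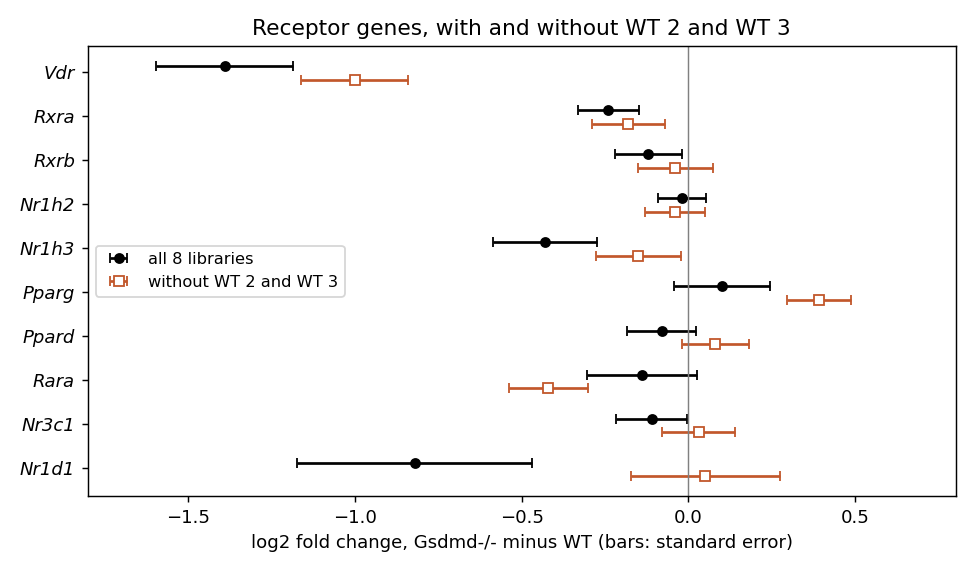
Log2 fold change of Gsdmd-/- over WT for the 10 genes, with error bars of 1 SE, from all 8 libraries and from the 6 libraries without WT 2 and WT 3. Vdr was lower with both sets (-1.39 and -1.0), whereas the value of Nr1d1 went from -0.82 to 0.05 and that of Pparg from 0.10 to 0.39.

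As a group, 9 of the 10 genes had a log2 fold change below 0, with a median of -0.13, beside 6653 of 12911 genes and a median of -0.0068 for all tested genes. Without WT 2 and WT 3 the median of the 10 genes was -0.04. WT 2 and WT 3 were the highest pair of the 8 libraries for 5 of the 10 genes, namely Vdr, Nr1h3, Ppard, Nr3c1 and Nr1d1, and for 17.9% of all tested genes. The spread within WT, as the highest over the lowest library, went from 1.07 for Nr1h2 to 3.04 for Nr1d1, and was 1.74 for Vdr. Within Gsdmd-/- it lay between 1.09 for Nr1h2 and 1.34 for Vdr.

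Levels per length were compared between genes as RPKM, the CPM divided by the length of the exon union in kilobases. In WT, Rxra had the highest level, 32.4 ± 2.62 RPKM (SD, n = 4), followed by Nr1h2 with 24.2 ± 0.654 RPKM, and the ranges of these genes did not overlap with each other or with the next. Pparg (16.9 ± 3.79 RPKM) and Rara (16.5 ± 4.54 RPKM) were not apart beyond their spread. The levels then went from Nr1h3 (11.7 ± 2.69 RPKM) over Ppard (10.9 ± 1.36 RPKM) and Nr3c1 (9.33 ± 1.34 RPKM) to Rxrb (7.38 ± 0.765 RPKM), and each of these genes overlapped with its neighbours in this order, Nr1h3 with Rara included. Vdr (2.37 ± 0.652 RPKM) and Nr1d1 (1.60 ± 0.844 RPKM) were below all others and overlapped with each other. Vdr was thus far below its partner Rxra in both genotypes. In Gsdmd-/-, the order was the same except that Ppard (10.3 ± 0.783 RPKM) was above Nr1h3 (8.72 ± 0.43 RPKM), and Vdr had 0.906 ± 0.12 RPKM (SD, n = 4). With the length of the longest transcript in place of the exon union, Nr1h2 (40.6 RPKM) was above Rxra (36.0 RPKM) in WT. The WT mean of Ppard (22 RPKM) was then above those of Rara (21.3 RPKM) and Nr1h3 (14.9 RPKM), and that of Rxrb (11.2 RPKM) above that of Nr3c1 (11.1 RPKM). The ranges of Ppard and Rara overlapped, as did those of Rxrb and Nr3c1. Vdr (3.06 RPKM) and Nr1d1 (1.81 RPKM) were still the lowest.

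Among the 10 genes, Nr1d1 followed Vdr most closely from library to library. Over the 8 libraries, with the mean of each genotype removed, Pearson's r with Vdr was 0.96 for Nr1d1 and 0.93 for Ppard, and it was 0.92 and 0.71 over the 6 libraries without WT 2 and WT 3. For Rxra it was 0.67 and 0.74. For Pparg and Nr1h3, r was 0.75 and 0.66 with all libraries and -0.72 and -0.47 without WT 2 and WT 3, and for Rara it went from -0.69 to 0.65. Of 9612 genes with a mean of at least 5 CPM, those most like Vdr were Galnt10 (r = 0.995), Foxm1 (0.992), Vgll4 (0.988), Zfyve27 (0.986) and Tbc1d4 (0.983), and r was at least 0.957 for each of them without WT 2 and WT 3. The most opposite were Msl3l2 (-0.991), Lpxn (-0.989), Fundc2 (-0.989), Faap20 (-0.987) and Ddx28 (-0.986). Galnt10 had 51.7, 71.6, 70.0 and 49.1 CPM in WT and 52.8, 49.2, 47.6 and 55.5 CPM in Gsdmd-/-. It shared the high WT 2 and WT 3 with Vdr, but its Gsdmd-/- levels lay around those of WT 1 and WT 4, whereas those of Vdr lay below them. These are the extremes of 9612 values of r over libraries that share their depth and preparation, and describe only these 8 libraries.

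**Figure D3:**
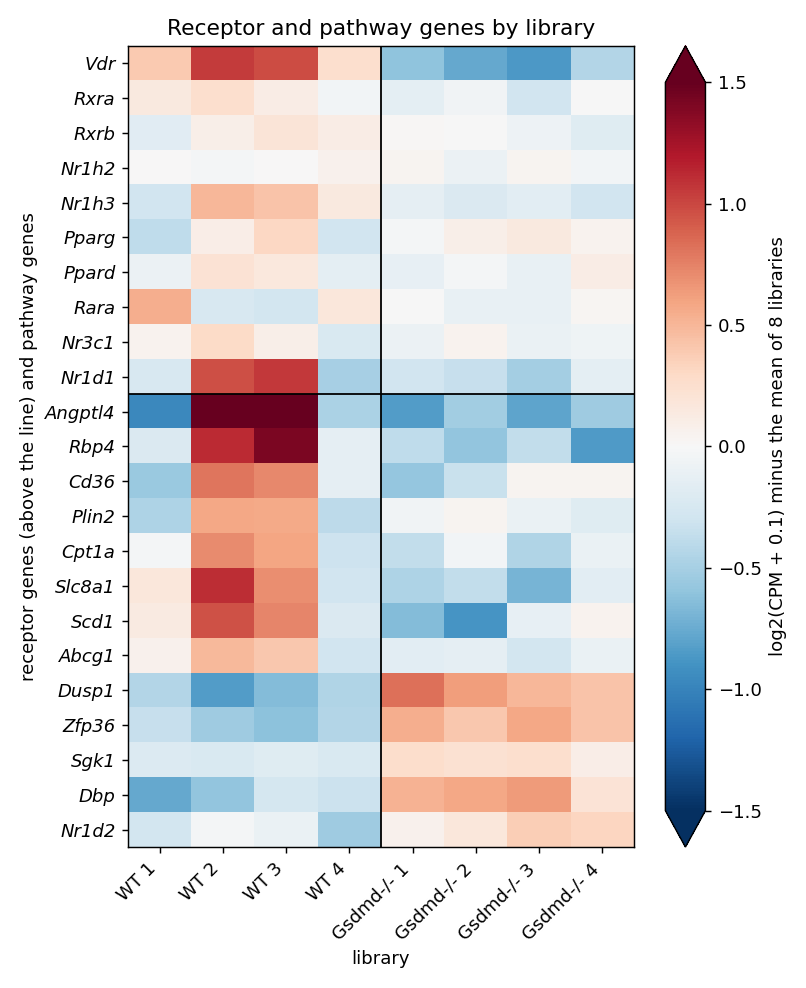
Log2 level of the 10 receptor genes and of 13 genes from the lists of targets and related genes in each library, as log2(CPM + 0.1) minus the mean of the 8 libraries, with colours saturating at 1.5 in either direction. Vdr was below its mean in all 4 Gsdmd-/- libraries, and WT 2 and WT 3 were high for Vdr, Nr1d1, Angptl4 and Rbp4.

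Genes that make, degrade or carry vitamin D, or that VDR is known to induce, were examined next. The counts in the following lists are set beside those of all tested genes, of which 12.0% had an unadjusted p under 0.05 in edgeR's quasi-likelihood fit, while an adjusted p under 0.05 was reached by 0.349% in that fit, 0.333% in limma voom, 2.26% in DESeq2, 1.91% in the exact test of edgeR and 1.21% in the fit without WT 2 and WT 3. Of 25 listed genes, 11 were tested, with 3 above and 8 below 0 and a median log2 fold change of -0.13. None passed the adjusted test in edgeR's quasi-likelihood fit or in limma voom, 1 each passed in DESeq2 (2.26% of all tested genes) and the exact test of edgeR (1.91%), and 4 of 11 had an unadjusted p under 0.05, as had 12.0% of all tested genes. Cyp24a1, the enzyme that degrades vitamin D and a classic VDR target, had 0 counts in 7 libraries and 1 count in Gsdmd-/- 4. Cyp27b1, which makes the active hormone, had 6 counts over the WT libraries and 1 over the Gsdmd-/- libraries. With at most 3 counts in any library, neither gene was detectable at this depth beyond 0.177 to 0.199 CPM, and no difference could be read from them. Slc8a1, a sodium-calcium exchanger, had 25.4, 48.8, 36.6 and 18.5 CPM in WT and 16.3, 17.5, 13.9 and 20.3 CPM in Gsdmd-/-, with the highest levels in WT 2 and WT 3 as for Vdr (log2 fold change -0.93, SE 0.262, adjusted p = 0.214). Without WT 2 and WT 3 it was -0.37 (SE 0.173), and over the alternatives the adjusted p of Slc8a1 ranged from 0.0292 to 0.514 and passed in 3 of 18, among them DESeq2 and the exact test of edgeR. Thbd, which encodes thrombomodulin, had 9.51 ± 1.63 CPM in WT and 6.53 ± 1.02 CPM in Gsdmd-/- (SD, n = 4) without overlap, and an adjusted p of 0.248 (log2 fold change -0.54, or -0.32 without WT 2 and WT 3). Dusp10, a MAP kinase phosphatase, had 2.74 ± 0.414 and 1.75 ± 0.569 CPM (adjusted p = 0.367). These 3 of 11 genes were at the study's cutoff on the lower side, as were 3.28% of all tested genes. Txnip had 226 ± 5.52 CPM in WT and 261 ± 15.7 CPM in Gsdmd-/- without overlap (adjusted p = 0.318).

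All 17 tested LXR targets of 22 listed had a log2 fold change below 0, with a median of -0.35. None passed the adjusted test in the quasi-likelihood fit or the other 3 tools, and 7 of 17 had an unadjusted p under 0.05 (12.0% of all tested genes). In the fit without WT 2 and WT 3, 2 passed (1.21% of all tested genes). Without WT 2 and WT 3 the median of these targets was -0.15, and WT 2 and WT 3 were the highest pair for 8 of them. Abca1 and Abcg1, the cholesterol efflux transporters, had 64.4 ± 13.1 and 656 ± 153 CPM in WT and 56.3 ± 14.1 and 507 ± 25.8 CPM in Gsdmd-/- (SD, n = 4), with adjusted p of 0.749 and 0.374. The log2 fold change of Abcg1 went from -0.37 to -0.07 without WT 2 and WT 3. Mylip, which marks the LDL receptor for degradation, had 13.1 ± 3.17 and 8.80 ± 1.45 CPM (log2 fold change -0.58, SE 0.185, adjusted p = 0.266). Scd1, a fatty acid desaturase, had 17.5 ± 6.24 and 9.81 ± 2.95 CPM (log2 fold change -0.84, SE 0.28, adjusted p = 0.284), and -0.34 without WT 2 and WT 3. Only Mylip and Scd1, 2 of 17, were at the study's cutoff, on the lower side (3.28% of all tested genes). Srebf1, the regulator of fatty acid synthesis, had 87.3 ± 7.13 and 81.5 ± 4.04 CPM (adjusted p = 0.692), with a log2 fold change of -0.10, or 0.00 without WT 2 and WT 3. The largest and smallest differences were those of Cd5l, a secreted macrophage protein, with 1.59 ± 1.17 and 0.716 ± 0.257 CPM (adjusted p = 0.481), and of the phosphodiesterase Smpdl3a, with 217 ± 37.6 and 212 ± 13.4 CPM (adjusted p = 0.937). Their log2 fold changes of -1.14 and -0.04 became 0.30 and 0.19 without WT 2 and WT 3.

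Of 27 listed PPAR targets, 20 were tested, 3 were above and 17 below 0 with a median of -0.14. None passed the adjusted test in the quasi-likelihood fit or limma voom, 1 passed in DESeq2 and in the exact test of edgeR, and 6 of 20 had an unadjusted p under 0.05 (12.0% of all tested genes). The median was 0.08 without WT 2 and WT 3, which were the highest pair for 12 of the 20 genes. Angptl4, a secreted lipase inhibitor and PPARδ target, had 1.40, 11, 13.4 and 2.01 CPM in WT and 1.54, 1.95, 1.59 and 1.92 CPM in Gsdmd-/-. Its log2 fold change of -1.99 (SE 0.649, adjusted p = 0.272) thus came from WT 2 and WT 3, and it was 0.04 without them. Cd36, the fatty acid scavenger receptor, had 1089.8, 2784, 2627 and 1459 CPM in WT and 1064, 1269, 1643 and 1636 CPM in Gsdmd-/- (adjusted p = 0.530). Plin2, which coats lipid droplets, had 432, 892, 888 and 456 CPM in WT and 577, 614, 556 and 529 CPM in Gsdmd-/- (adjusted p = 0.748). Both genes were highest in WT 2 and WT 3, and their log2 fold changes of -0.50 and -0.23 became 0.14 and 0.36 without these libraries. Cpt1a, the entry enzyme of mitochondrial fatty acid oxidation, had 134 ± 43.8 and 93.0 ± 12.9 CPM (log2 fold change -0.53, or -0.07 without WT 2 and WT 3, adjusted p = 0.360) and was at the study's cutoff, as was Angptl4 (2 of 20 on the lower side, beside 3.28% of all tested genes). Fabp4, a fatty acid-binding protein gene and PPARγ target, had 111 ± 17.4 and 113 ± 12.3 CPM (log2 fold change 0.03, or 0.23 without WT 2 and WT 3, adjusted p = 0.947), and its relative Fabp5 had 1170 ± 106 CPM in WT and 1560.1 ± 117 CPM in Gsdmd-/- without overlap (adjusted p = 0.124). The adjusted p of Fabp5 ranged from 0.00397 to 0.399 over the alternatives and passed in 2 of 18, DESeq2 and the exact test of edgeR.

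Of 20 listed genes of retinoic acid metabolism and response, 8 were tested, of which 4 were above and 4 below 0. The median of the 8 genes was -0.03, or 0.22 without WT 2 and WT 3. None passed the adjusted test in the quasi-likelihood fit, limma voom or DESeq2, 1 passed in the exact test of edgeR, and 2 of 8 had an unadjusted p under 0.05 (12.0% of all tested genes). Rbp4, the retinol carrier, had 144, 364, 447 and 153 CPM in WT and 129, 111, 130 and 92.9 CPM in Gsdmd-/-, without overlap, with a log2 fold change of -1.26 (SE 0.341, adjusted p = 0.189). Without WT 2 and WT 3 it was -0.36 (SE 0.138), and the adjusted p of Rbp4 ranged from 0.0205 to 0.457 over the alternatives and passed in 2 of 18, the exact test of edgeR and the fit without a filter. At the study's cutoff were 2 of the 8 genes, on the lower side, beside 3.28% of all tested genes. Rbp4 was among them and was highest in WT 2 and WT 3, where Rara was lowest. Tgm2, a transglutaminase induced by retinoic acid, had 65.1 ± 24.4 and 71.9 ± 15.9 CPM (log2 fold change 0.14, or 0.69 without WT 2 and WT 3, adjusted p = 0.868).

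**Figure D4:**
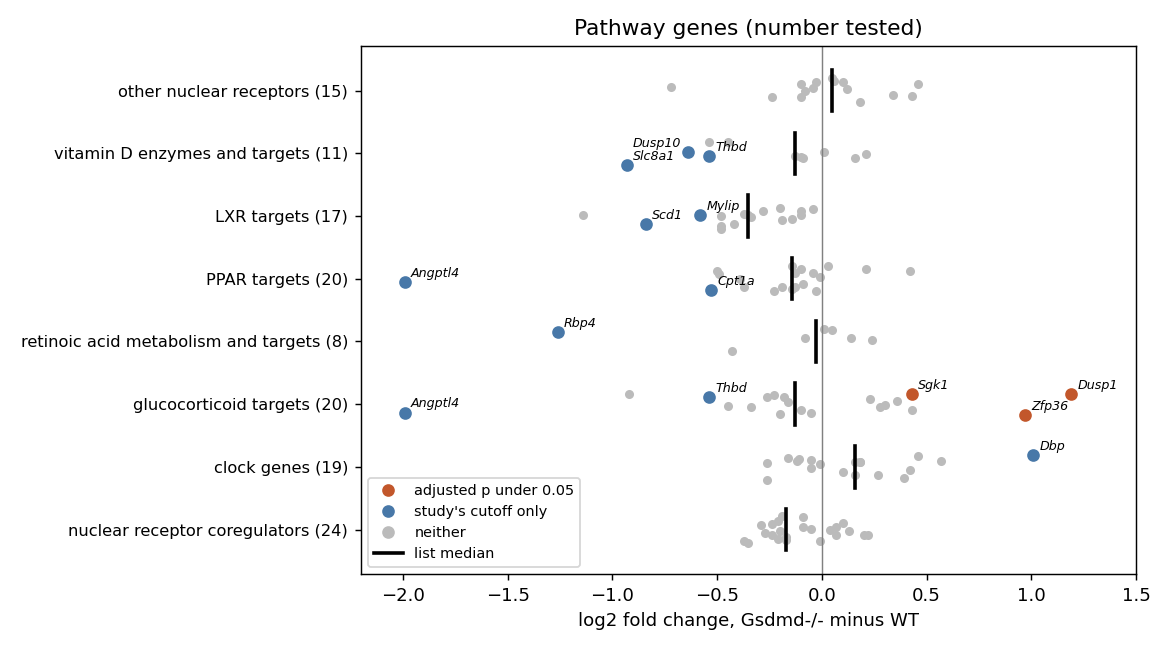
Log2 fold change of Gsdmd-/- over WT for the tested genes of the 8 lists of targets and related genes, 2 genes not shown, with 1 point per gene (orange past the adjusted test, blue at the study's cutoff only, grey for the rest) and a bar at the median of each list. All 17 LXR targets lay below 0, and the points past the adjusted test were Dusp1 (1.19), Zfp36 (0.97) and Sgk1 (0.43) among the glucocorticoid targets.

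The glucocorticoid targets were the only list with genes past the adjusted test in edgeR's quasi-likelihood fit with all libraries, and these 3 of 20 tested genes rose in Gsdmd-/-, as did 0.139% of all tested genes. The list was chosen with earlier results of these data known, so nothing is read from that share. Dusp1, a phosphatase that switches off MAP kinases, had 60.4, 45.7, 52.3 and 59.6 CPM in WT and 145, 126, 116 and 110.3 CPM in Gsdmd-/-, a log2 fold change of 1.19 (SE 0.119, adjusted p = 0.00178 by edgeR). Zfp36, which encodes the mRNA-destabilizing protein tristetraprolin, had 109, 95.9, 90.7 and 102 CPM in WT and 202, 183, 207 and 186 CPM in Gsdmd-/-, a log2 fold change of 0.97 (SE 0.0854, adjusted p = 0.00082 by edgeR). Sgk1, a kinase that regulates ion transport, had 332, 327, 336 and 326 CPM in WT and 459.7, 449.7, 455 and 409.7 CPM in Gsdmd-/-, a log2 fold change of 0.43 (SE 0.0738, adjusted p = 0.0468 by edgeR). The call of Sgk1 held in 7 of 18 alternatives and in none with 1 library left out, where its adjusted p reached 0.235, while Dusp1 and Zfp36 passed in all 18. In all 3 genes every Gsdmd-/- library was above every WT library, as in 3.48% of all tested genes, and in Dusp1 and Zfp36, unlike in Vdr, WT 2 and WT 3 were the lowest libraries. Dusp1 and Zfp36 are also immediate-early genes that many stimuli induce, and the cause of their higher levels was not tested. Fkbp5, Tsc22d3 and Per1 did not pass the test. Fkbp5, a chaperone of the receptor, had 16.2 ± 2.92 and 13.9 ± 1.77 CPM (log2 fold change -0.23, or -0.43 without WT 2 and WT 3, adjusted p = 0.591). Tsc22d3, which encodes the anti-inflammatory protein GILZ, had 64.6 ± 17.4 and 47.4 ± 4.04 CPM (log2 fold change -0.45, or -0.08 without WT 2 and WT 3, adjusted p = 0.351). The clock gene Per1 had 26.2 ± 6.57 and 22 ± 2.46 CPM (log2 fold change -0.26, or -0.53 without WT 2 and WT 3, adjusted p = 0.599). Of the 20 genes, 8 were above and 12 below 0, with a median of -0.13, or -0.06 without WT 2 and WT 3. These libraries were the lowest pair for 8 of the 20 and for 17.5% of all tested genes. At the study's cutoff Dusp1 and Zfp36 were on the higher side (1.54% of all tested genes) and Thbd and Angptl4 on the lower side (3.28%).

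Of 22 listed clock symbols, 21 were found and 19 genes were tested, with 11 above and 8 below 0. The median was 0.16, or 0.01 without WT 2 and WT 3, which were the lowest pair for 5 of the 19 and the highest pair for 0. None passed the adjusted test in the quasi-likelihood fit or limma voom, 2 passed in DESeq2 (Dbp and Nr1d2) and 1 in the exact test of edgeR (Dbp), and 7 of 19 had an unadjusted p under 0.05 (12.0% of all tested genes). Dbp, an output gene of the clock, had 1.40, 1.59, 2.02 and 1.95 CPM in WT and 3.55, 3.73, 3.87 and 2.85 CPM in Gsdmd-/-. All Gsdmd-/- libraries were above all WT libraries (log2 fold change 1.01, SE 0.205, adjusted p = 0.0861), and Dbp alone of the 19 was at the study's cutoff, on the higher side (1.54% of all tested genes). Nr1d2, which encodes REV-ERBβ, had 27.6, 32.6, 31.1 and 23.1 CPM in WT and 34.9, 37.6, 43.1 and 41.8 CPM in Gsdmd-/-, without overlap (log2 fold change 0.46, SE 0.122, adjusted p = 0.181). Nfil3, a repressor of the same promoter elements that DBP activates, had 16.6 ± 1.47 and 13.8 ± 1.5 CPM (adjusted p = 0.401).

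Among the 39 other nuclear receptor genes, 15 were tested and 24 were too low, with a mean of at most 0.185 CPM. None of the 15 passed the adjusted test in the quasi-likelihood fit or was at the study's cutoff, 1 (Nr1d2) passed in DESeq2 (2.26% of all tested genes) and had an unadjusted p under 0.05 (12.0%), and their median log2 fold change was 0.05. The lowest value was that of Nr4a2, with 1.40 ± 0.477 and 0.842 ± 0.258 CPM (log2 fold change -0.72, or -0.41 without WT 2 and WT 3, adjusted p = 0.432). Of 25 coregulators, 24 were tested, 7 were above and 17 below 0 with a median of -0.17. None passed the adjusted test in any of the 4 tools or was at the study's cutoff, and 3 of 24 had an unadjusted p under 0.05 (12.0% of all tested genes). The corepressor Ncor1, which unliganded receptors recruit, had 115 ± 22.4 CPM in WT and 99.3 ± 21.1 CPM in Gsdmd-/- (adjusted p = 0.690). Kat2b, an acetyltransferase that coactivates receptors, had 23.0 ± 1.81 and 26.8 ± 1.35 CPM (adjusted p = 0.384). Over all 8 lists without the 10 receptors, 128 of 195 genes were tested, of which 3 (2.34%) passed the adjusted test, all as higher, beside 0.349% of all tested genes (0.139% as higher and 0.209% as lower). At the study's cutoff were 12 (9.38%), 3 as higher and 9 as lower, beside 4.83% of all tested genes (1.54% as higher and 3.28% as lower). All lists were chosen with earlier results of these data known, so nothing is read from these shares.

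Markers of other cells were mostly low. Summed levels were 0 to 0.183 CPM for T cells, 0 to 0.487 CPM for B cells, 0.733 to 2.74 CPM for stromal cells, 0 to 0.305 CPM for adipocytes, 0 to 0.0611 CPM for erythroid cells, 4.26 to 6.68 CPM for neutrophils and 2.31 to 4.99 CPM for dendritic cells over the 8 libraries, and 10.1 to 33.3 CPM for megakaryocytes. Endothelial markers summed to 142 to 269 CPM in WT and 134 to 212 CPM in Gsdmd-/-, mostly from Vwf and Kdr. Vwf was highest in WT 2 and WT 3 with 238 and 201 CPM, whereas Kdr was lowest there with 23.6 and 21.1 CPM and otherwise had 44.1 to 77.8 CPM. Mast cell markers summed to 10.7 to 71.8 CPM in WT and 46.2 to 67.7 CPM in Gsdmd-/-, mostly from Kit, which was lowest in WT 2 and WT 3 with 11.4 and 10.3 CPM and otherwise 46.0 to 71.0 CPM, while Mcpt4 was at 0 in all 8 libraries. The part of these genes in the values of Vdr, Nr1d1 or the target lists was not tested.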

How the data were processed

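RNA of 4 WT and 4 Gsdmd-/- macrophage libraries was sequenced from TruSeq libraries. The authors deposited read counts per gene for all 8 libraries in 1 table, not normalized. Their processing notes name mm10, whereas the aligner, counter, annotation and strand setting are not given in the sources used here. Each column was matched to a sample by its label. Positions and lengths were taken from GENCODE M21, which held 54495 of 54532 genes. Counts were filtered with filterByExpr, scaled by TMM and tested two-sided with edgeR 4.0.16 (quasi-likelihood, genotype as the only term, Benjamini-Hochberg adjustment over 12911 genes) in R 4.3.3. CPM use the TMM factors, and library correlations a prior count of 2. The limit for 0 counts was taken as 3 counts per library, 0.177 to 0.199 CPM, and covers counting error only. The main fit, but not the alternatives or the other steps, was tested on simulated counts. Pairs of libraries differed by at least 5.92 times the counting noise, so all were kept as separate samples.

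The 10 receptors and all lists were chosen with earlier results of these data known. Named are the 10 receptors and, of each list, the genes with an adjusted p under 0.05, those at the study's cutoff, the gene with the largest absolute log2 fold change in each direction among those with a mean of at least 1 CPM, 19 fixed genes, and the 5 genes most and least like Vdr. Where no gene of a list was above 0, the one nearest to 0 took that place (Smpdl3a). The list counts include 2 genes that are not reported here. Alternatives were limma voom (limma 3.58.1), DESeq2 1.42.0, the exact test of edgeR, RLE, upper-quartile and total-count scaling, unfiltered genes, a minimum of 10 counts in all libraries, a replicate block, and leaving out each library in turn or both WT 2 and WT 3.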

Additional observations from a re-analysis of the deposited data

Results flagged for a closer look

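Among the named genes, 4 of 89 tested sets of 4 libraries of 1 genotype held a library far from the other 3, where chance alone gives about 1 in 20. The Tsc22d3 level of Gsdmd-/- 3 was 53.4 CPM beside 45 to 45.9 CPM in the other Gsdmd-/- libraries. The Smpdl3a level of Gsdmd-/- 4 was 192 CPM beside 217 to 221 CPM. The others were Cyp24a1 with 0.0663 CPM in Gsdmd-/- 4 and Cyp27b1 with 0.0592 CPM in Gsdmd-/- 1, each 1 count beside 0 counts in the other Gsdmd-/- libraries. None of the 10 receptors had such a library.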

How the results depend on the processing

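Vdr was below 0 under all 18 alternatives, as were Rxra, Rxrb and Nr1h3, and the log2 fold change of Vdr ranged from -1.51 to -1.26 when 1 library was left out and was -1.0 without both WT 2 and WT 3. Pparg, Ppard, Rara, Nr3c1 and Nr1d1 kept their sign in 17 of 18 alternatives and Nr1h2 in 14. Rara turned with WT 1 left out (0.05) and Nr1h2 with Gsdmd-/- 2 left out (0.01). The median of all genes lay between -0.0099 and 0.0044 under the other scalings and between -0.0156 and 0.0106 under all alternatives.

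Of all tested genes, 45 had an adjusted p under 0.05, and this number was 292 with DESeq2, 246 with the exact test of edgeR, 109 without a filter, 161 without both WT 2 and WT 3, 25 with the replicate block and 14 to 84 with 1 library left out. At the study's cutoff, 623 became 1204 without a filter and 469 to 1022 with 1 library left out (1022 without WT 4). Of the list genes, 3 passed the adjusted test, and 7 with DESeq2, 7 with the exact test, 8 without both WT 2 and WT 3 (Dusp1 and Zfp36, and Spp1, Apoe, Arl4c, Mgl2, Tef and Il1r2, picked once their values were known) and 2 to 4 with 1 library left out, while 12 at the cutoff became 19 without both and 10 to 21 with 1 left out. The cause was not tested. Dusp1 and Zfp36 passed in all 18 alternatives, with adjusted p of at most 0.0132 and 0.00975, and Sgk1 in 7 and in none with 1 library left out (up to 0.235). The adjusted p of Dbp ranged from 0.00367 to 0.317 and that of Nr1d2 from 0.0454 to 0.404.

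Same-numbered WT and Gsdmd-/- libraries did not deviate together (r between -0.201 and 0.182), so the numbers were not taken to pair the samples. With the replicate block, Vdr was at -1.35, and 2 list genes passed the adjusted test.

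The log2 fold change turned without both WT 2 and WT 3 for Thra (0.03), Srebf1 (0.00), Cd5l (0.30), Smpdl3a (0.19), Cd36 (0.14), Plin2 (0.36) and Angptl4 (0.04). With 1 library left out it turned for Smpdl3a (-0.11 to 0.05, and above 0 without WT 2, WT 3 or Gsdmd-/- 4), Fabp4 (-0.05 to 0.11, and below 0 without WT 1, WT 4 or Gsdmd-/- 3) and Tgm2 (-0.04 to 0.31, and below 0 without WT 4). None of these genes had passed the adjusted test. Of 844 values of single genes, 795 kept their direction and their side of the threshold or, where no test was made, moved by less than the spread between replicates. Depth limits Cyp24a1, Cyp27b1 and other genes near 0.2 CPM.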

Other observations

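Apoe, the apolipoprotein that carries cholesterol out of macrophages and an LXR target, was chosen after its values were seen. It had 1009.6, 116, 125 and 1300.3 CPM in WT and 614, 500, 534 and 453 CPM in Gsdmd-/-. WT 2 and WT 3 were the lowest and WT 1 and WT 4 the highest of the 8 libraries, with all Gsdmd-/- libraries between them. Nr1h3, Abcg1 and Vdr had their highest levels in WT 2 and WT 3. The log2 fold change between genotypes was -0.28 (SE 0.668, adjusted p = 0.903 by edgeR) with all libraries. Without WT 2 and WT 3 it was -1.14 (SE 0.135, adjusted p = 0.00576 by edgeR), so that the call of Apoe depended on these libraries. WT 2 and WT 3 were also singled out from these same data, so nothing is read from this adjusted p.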
